A study of Mus musculus with 48 samples.

Results

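The core circadian clock genes described here are 10 rows of the lung expression table, Arntl, Clock, Npas2, Per1, Per2, Per3, Cry1, Cry2, Nr1d1 and Nr1d2, out of 47561 genes. These genes were selected on their FPKM by strain, injection and air, so their differences along those 3 labels are given as descriptions without a test. FPKM counts fragments relative to the length of the transcript and the number of mapped fragments. Sex is not among those labels, and the differences between males and females within each air were tested. A sex difference of Nr1d2 in the 12 saline mice in room air was known when the genes were chosen, so tests that include those mice are not independent of the choice. The choice by strain, injection and air also used the values of the other mice, so their tests are not fully independent of it. All 10 genes had an FPKM above 0 in all 48 mice, and all 10 passed the filter on low values in each comparison.

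Adult C3H/HeN (C3H) and C57Bl/6 (C57B) mice of both sexes received a single intraperitoneal injection of saline (SAL) or of aurothioglucose (ATG), a gold drug known to block thioredoxin reductase, at 25 mg/kg. They then breathed room air (RA) or oxygen above 95% (hyperoxia, HYP) for 96 h before the lungs were collected under ketamine and xylazine. The 16 groups of strain, sex, injection and air held 3 mice each, and they are called C3HM, C3HF, C57BM and C57BF (M for male, F for female) with their injection and air. The labels write C57Bl/6, the methods C57Bl/6N and the series text a J substrain. The series text also gives ATG to every group, and the saline groups rest on the sample labels.

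The hour of collection is not given in the sources used here. Clock transcripts cycle over the day, so a difference between groups and a difference in collection hour cannot be told apart. Males carry the numbers 1 to 24 and females 25 to 48, and X-linked, Y-linked and mitochondrial genes are listed at 0 throughout, so sex rests on the labels. Absolute depth is unknown. The FPKM summed over genes ran from 510933 to 748290 per mouse, and the club cell gene Scgb1a1 took 10.4% to 30.2% of it in room air against 1.20% to 7.17% in hyperoxia. Mice 1, 3 and 4 (C3HM in room air, 1 and 3 on saline and 4 on ATG) stood apart, with an Rn18s-rs5 ribosomal RNA level above 20000 FPKM. The nearest mouse by expression breathed the same air for 48 of 48 mice and belonged to the same group for 24 of 48. The alveolar type 2 cell markers, led by Sftpc, summed to at least 5701 FPKM in every mouse, so the lung label was borne out. In whole lung, fewer cells of a type and less RNA per cell cannot be told apart.

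The mammalian clock is a transcriptional loop that runs in most cells, lung included. BMAL1 (the product of Arntl) pairs with CLOCK or its relative NPAS2 and binds E-box sequences, switching on the Per, Cry and Nr1d genes. PER and CRY proteins then repress that pair, while the REV-ERB receptors made from Nr1d1 and Nr1d2 compete with ROR receptors at RORE sequences and repress Arntl and Npas2. A further arm uses D-box sequences, which DBP, TEF and HLF activate and NFIL3 represses. In the lung the clock is known for its part in airway inflammation and in the response to glucocorticoids.

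The promoter table, from RefSeq on GRCm38.p6, held 13 windows of 300 bases for 9 of the 10 genes, each window running from 250 bases before a start site to 50 after it. Per2 had none. Short stretches with the clock motifs are shown because these elements define the 3 arms of the loop. Motifs were searched on both strands as CACGTG (E-box), CACGTT (E′-box), TTATGNAA (D-box) and TAGGTCA (core of the RORE). Each line gives 30 bases, 5′ to 3′ on the strand of the gene, with the match in capitals.
Arntl RORE core (chr7:113207530-113207559, plus strand): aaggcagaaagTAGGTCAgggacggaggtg
Nr1d1 E′-box (chr11:98775388-98775417, minus strand): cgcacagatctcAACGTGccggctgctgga
Per1 E-box (chr11:69098771-69098800, plus strand): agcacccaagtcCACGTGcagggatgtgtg
Per1 D-box (chr11:69098914-69098943, plus strand): agggcctggcaTTATGCAAcccgcctccca
Per3 distal D-box (chr4:151044852-151044881, minus strand): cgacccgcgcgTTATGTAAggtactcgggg
Per3 proximal D-box (chr4:151044805-151044834, minus strand): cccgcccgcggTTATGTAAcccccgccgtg
Cry1 E-box (chr10:85185097-85185126, minus strand): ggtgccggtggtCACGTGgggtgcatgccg
The E-box of Cry1 began 60 bases before its start site and that of Per1 166 bases before, while the RORE core of Arntl lay just after a start site. CACGTT or its complement was in windows of Cry1, Cry2 and Nr1d1. The printed matches do not overlap. Among all 32851 windows, 7.15% held the E-box, 4.68% the E′-box, 3.38% the D-box and 2.61% the RORE core, against 2, 3, 2 and 1 of the 13 windows of the clock genes. A match describes letters and not binding.

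On GRCm38 (GENCODE M21) all 10 are protein-coding genes. Arntl lies at chr7:113207465-113314126, Clock at chr5:76209868-76304792 and Npas2 at chr1:39193731-39363236. Per1 is at chr11:69095217-69109960, Per2 at chr1:91415982-91459324 and Per3 at chr4:151003652-151044665. Cry1 occupies chr10:85131700-85185064 and Cry2 chr2:92403646-92434043. Nr1d1 lies at chr11:98767932-98775333 and Nr1d2 at chr14:18204054-18239127. Nr1d1 shares 263 exon bases, 8.55% of its exons, with Thra on the opposite strand, and Cry2 shares 4.67% with the noncoding D930015M05Rik. How the counting used strand is not given in the sources used here, so reads in those stretches could belong to either gene. Of the 50-base sequences of Nr1d2, 5.13% also occur in AC170187.1, and Arntl, Clock, Npas2, Per1, Per2 and Cry1 share none with another gene.

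Over the 48 mice, Nr1d1 had the highest median FPKM (42.5, range 7.01 to 103.5), and Npas2 the lowest (1.63, range 0.0352 to 7.40). Between them came Per1 with a median FPKM of 22.9, Nr1d2 with 17.3, Cry2 with 11.1, Clock with 9.98, Cry1 with 8.23, Arntl with 5.93, Per2 with 3.55 and Per3 with 1.89. FPKM is scaled to transcript length, so these levels can be set beside each other. The ranges of neighbours in this order overlapped throughout.

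**Figure D1:**
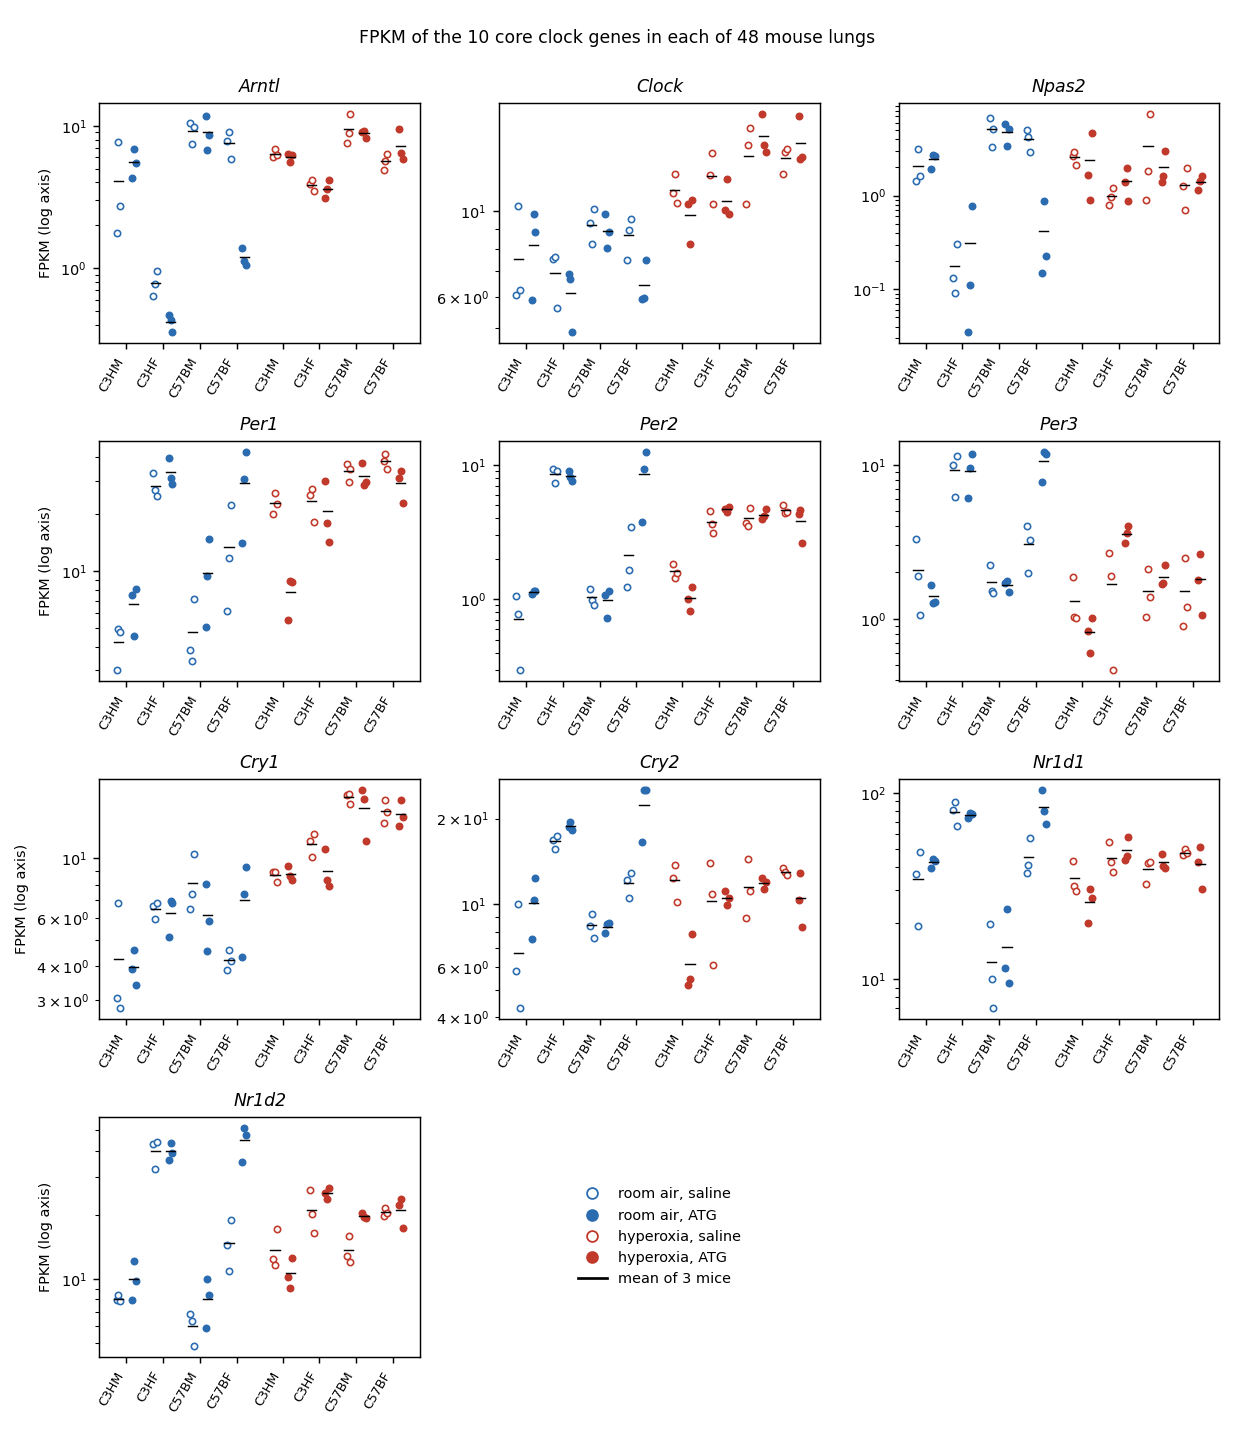
FPKM (log axis) of the 10 core clock genes in each of the 48 mice, by strain and sex on the horizontal axis, with room air in blue, hyperoxia in red, saline as open points, ATG as filled points and a line at the mean of 3 mice. The room air groups of most genes lie far apart, with Arntl below 1 FPKM in all C3HF mice, while those of Arntl, Npas2, Per3 and the Nr1d genes lie closer together in hyperoxia.

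Among the activators in room air, Arntl was low in C3HF mice and in C57BF mice given ATG, and high in C57B males. Its FPKM was 0.643, 0.779 and 0.963 in C3HF mice on saline and 0.474, 0.438 and 0.359 in C3HF mice on ATG. In C57BF mice it was 7.86, 9.02 and 5.83 on saline and 1.40, 1.13 and 1.06 on ATG. In C57BM mice it was 10.4, 7.42 and 9.81 on saline and 11.8, 6.81 and 8.65 on ATG. C3HM mice were between, at 1.78, 7.71 and 2.72 FPKM on saline and 4.33, 6.87 and 5.44 on ATG. The C3HM saline mice at 1.78 and 2.72 were mice 1 and 3, which stood apart by their Rn18s-rs5.

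Npas2, the relative of Clock, had a similar pattern at a lower level. It reached 0.132, 0.0917 and 0.303 FPKM in C3HF mice on saline and 0.0352, 0.110 and 0.780 on ATG. In C57BF mice the FPKM was 5.00, 4.22 and 2.91 on saline and 0.147, 0.871 and 0.225 on ATG. The 12 males in room air ran from 1.44 to 6.77 FPKM with a median of 3.23. Clock, the partner of BMAL1, covered a narrow range in room air, from 4.88 FPKM in a C3HF mouse on ATG to 10.3 in a C3HM mouse on saline.

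The period genes, whose proteins repress the activators, were low in males and high in C3HF mice and in most C57BF mice on ATG. Per2 was 1.06, 0.773 and 0.299 FPKM in C3HM mice and 1.20, 0.996 and 0.911 in C57BM mice on saline in room air. It was 9.27, 7.37 and 8.95 FPKM in C3HF mice on saline, and 9.05, 8.16 and 7.55 in C3HF mice on ATG. In C57BF mice Per2 was 1.24, 1.66 and 3.46 FPKM on saline and 3.72, 9.35 and 12.4 on ATG. Thus the C57BF mice at 1.24 and 1.66 on saline sat near the males, and those at 9.35 and 12.4 on ATG above the C3HF mice. The C57BF mice at 3.46 on saline and 3.72 on ATG lay between. The injections did not overlap.

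Per3 ran from 1.05 to 3.28 FPKM in the 12 males in room air, against 6.07 to 11.8 in the 6 C3HF mice. Its FPKM in C57BF mice was 4.01, 1.98 and 3.24 on saline and 7.73, 12.1 and 11.7 on ATG. Per1, which glucocorticoids also induce, ran from 3.02 to 14.9 FPKM in males and from 6.19 to 42.7 in females.

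The cryptochromes, which act with the PER proteins, differed from each other. Cry2 in room air had a median FPKM of 8.44 in males (4.33 to 12.3) and 17.1 in females (10.5 to 25.2). Cry1 had a median FPKM of 5.23 in males (2.81 to 10.4) and 6.31 in females (3.86 to 9.32), and the sexes overlapped across nearly the whole range.

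Of the REV-ERB receptors, Nr1d2 was 7.97, 8.39 and 7.86 FPKM in C3HM mice and 6.85, 6.33 and 4.84 in C57BM mice on saline in room air. It was 43.2, 32.8 and 43.9 FPKM in C3HF mice on saline and 36.4, 43.6 and 39.3 on ATG. In C57BF mice Nr1d2 was 14.4, 10.9 and 19.0 FPKM on saline against 35.5, 51.3 and 47.8 on ATG. Nr1d1 was lowest in C57BM mice, at 19.8, 10.1 and 7.01 FPKM on saline, and highest in C57BF mice on ATG, at 104, 80.1 and 67.8.

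In hyperoxia the groups lay closer for Arntl, which was 6.00, 6.89 and 6.26 FPKM in C3HM mice on saline, 7.54, 8.88 and 12.1 in C57BM, 3.88, 4.18 and 3.47 in C3HF and 4.87, 5.64 and 6.37 in C57BF. On ATG its FPKM was 6.32, 5.56 and 6.21 in C3HM mice, 9.09, 9.18 and 8.20 in C57BM, 3.11, 3.58 and 4.18 in C3HF and 9.43, 6.48 and 5.87 in C57BF. No mouse in hyperoxia fell to the room air levels of C3HF mice.

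Nr1d2 in hyperoxia ran from 9.04 FPKM in a C3HM mouse on ATG to 26.6 in a C3HF mouse on ATG. Nr1d1 ran from 20.1 to 57.8 FPKM over the same 24 mice. Per2 stayed low in C3HM mice, at 1.84, 1.43 and 1.58 FPKM on saline and 1.01, 0.818 and 1.24 on ATG, below all other mice in hyperoxia, which ran from 2.61 to 5.04.

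The spread between groups put a number on this difference. The SD of the 8 group means on the log2(FPKM + 1) scale was 1.07 in room air and 0.295 in hyperoxia for Nr1d1, a ratio of 3.64. The ratio of SDs was 3.15 for Npas2, 2.78 for Nr1d2, 2.72 for Arntl, 2.57 for Per3, 1.99 for Per2, 1.93 for Cry2 and 1.60 for Per1. For Cry1 and Clock the ratios were 0.893 and 0.883, so the group means of these genes were slightly more spread in hyperoxia than in room air. The group means of Arntl spanned 21.7-fold in room air, from 0.424 FPKM in C3HF mice on ATG to 9.20 in C57BM mice on saline, and 2.62-fold in hyperoxia. Those of Npas2 spanned 28.9-fold and 3.43-fold, and those of Nr1d1 6.82-fold and 1.90-fold.

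Of the 10 clock genes, 8 had a ratio above 1, as did 50.4% of 16994 genes, and 5 had a ratio above 2, as did 10.2%. The median ratio over all genes was 1.00. The selection used these labels, so the counts are given without a test. Of 24 further clock genes 16 had a ratio above 1 and 4 above 2, Bhlhe41 (4.61), Hlf (3.44), Dbp (2.96) and the kinase gene Csnk1d (2.53).

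**Figure D2:**
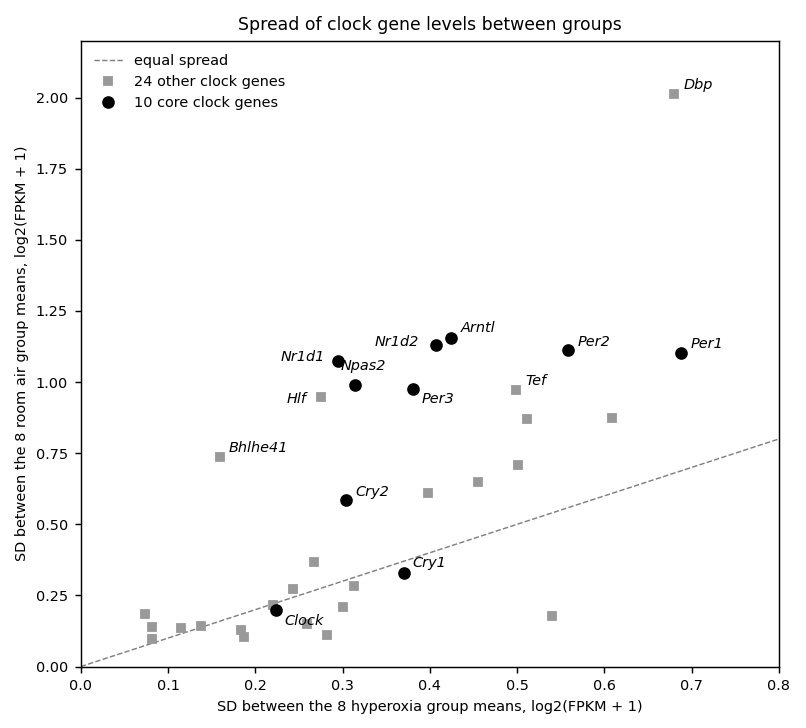
SD between the 8 room air group means (vertical axis) against the SD between the 8 hyperoxia group means (horizontal axis), both of log2(FPKM + 1), for the 10 core clock genes (black) and 24 other clock genes (grey), with a dashed line of equal spread. Nr1d1, Npas2, Nr1d2, Arntl and Per3 lie more than 2 times above that line and Clock and Cry1 slightly below it.

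Averaged over strain and sex, hyperoxia against room air was described separately on saline and on ATG. On saline, the 12 mice in hyperoxia had Clock FPKM of 10.4 to 16.5 (median 12.5) against 5.63 to 10.3 (median 7.93) in room air, so the groups did not overlap. Clock was the one gene of the 10 without overlap, where 7.74% of 16321 genes had none. The log2 difference for Clock was 0.61 (SE 0.09). Cry1 had a median FPKM of 12.8 in hyperoxia and 6.25 in room air, a log2 difference of 1.07 (SE 0.10). In C57B mice on saline, Clock, Cry1, Per1 and Per2 were all higher in hyperoxia without overlap, 4 of 10 genes, where 33.8% of 15447 genes had no overlap. In C3H mice on saline, Clock was 10.43 to 14.15 FPKM in hyperoxia and 5.63 to 10.31 in room air. Cry1 was 8.15 to 12.25 FPKM against 2.81 to 6.86, so neither overlapped there. Per1 and Per2 did overlap in C3H mice, and their means fell in C3HF mice.

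Per1 had the largest log2 difference of the 10 genes on saline, 1.55 (SE 0.15), with medians of 28.6 FPKM in hyperoxia and 6.66 in room air. Per3 went the other way, with a log2 difference of -0.80 (SE 0.17) and medians of 1.29 and 2.74 FPKM. Arntl differed by 0.46 (SE 0.14, and 0.22 without mice 1, 3 and 4), Per2 by 0.46 (SE 0.11), Nr1d2 by 0.33 (SE 0.10), Nr1d1 by 0.27 (SE 0.15), Cry2 by 0.16 (SE 0.12) and Npas2 by -0.22 (SE 0.19), all on the log2 scale. With a pseudocount of 0.1 in place of 1 the log2 difference of Per2 was 0.77. These saline averages cover opposite shifts. In C3HF mice mean Per1 fell from 28.25 to 23.6 FPKM and Per2 from 8.53 to 3.74. There mean Nr1d1 fell from 79.1 to 44.7 FPKM and Nr1d2 from 40.0 to 21.0. In the other saline groups these means were higher in hyperoxia, by little for Nr1d1 in C3HM mice (34.6 and 34.9 FPKM).

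On ATG, none of the 10 genes was without overlap between hyperoxia and room air, where 12.9% of 16206 genes were. Arntl had the largest log2 difference, 0.92 (SE 0.09), with FPKM of 3.11 to 9.43 (median 6.27) in hyperoxia and 0.359 to 11.8 (median 2.86) in room air. Cry1 differed by 0.91 (SE 0.11), Clock by 0.70 (SE 0.08), Per3 by -0.86 (SE 0.11) and Cry2 by -0.49 (SE 0.09) on the log2 scale. The log2 differences of Per1 (0.33, SE 0.18), Npas2 (0.15, SE 0.16), Per2 (-0.06, SE 0.13), Nr1d2 (-0.09, SE 0.09) and Nr1d1 (-0.20, SE 0.12) lay nearer to 0. These averages cover opposite shifts. Arntl in hyperoxia was above the room air mice of the same group in all C3HF mice and in all C57BF mice on ATG.

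Sex was compared within each air. In room air, 8 of the 10 genes differed between 12 males and 12 females by limma with Benjamini-Hochberg adjustment, where 13.3% of 16228 genes did (2161 genes, but 934 without mice 1, 3 and 4 and 4235 without mouse 2). Arntl and Npas2 were higher in males, and the 3 period genes, Cry2 and both REV-ERB genes were higher in females. The median log2 difference, male minus female, was -1.29 over the 10 genes and -0.07 over all genes tested. In all, 734 genes were higher and 1427 lower in males. Scaling each mouse by its median ratio moved this split to 1222 and 956, and the 8 clock genes kept their direction and call.

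Nr1d2 had the smallest p, with FPKM of 4.84 to 12.2 (median 7.96) in males and 10.9 to 51.3 (median 37.9) in females, a log2 difference of -1.89 (SE 0.10, limma adjusted p = 7.17e-10). This test includes the saline mice whose Nr1d2 difference was known when the genes were chosen, so its p is not independent of the choice. Per2 was the only one of the 10 genes whose sexes did not overlap, where 0.0739% of genes had none. The FPKM of Per2 was 0.299 to 1.20 in males (median 1.07) and 1.24 to 12.4 in females (median 7.85), with a log2 difference of -1.82 (SE 0.14, adjusted p = 1e-07). Per1 differed by -1.84 (SE 0.20, adjusted p = 1.16e-05), Nr1d1 by -1.62 (SE 0.17, adjusted p = 4.93e-06) and Per3 by -1.61 (SE 0.14, adjusted p = 2.54e-07). For Cry2 the log2 difference was -0.96 (SE 0.10, adjusted p = 6.64e-06). Arntl was higher in males by 1.48 (SE 0.14, adjusted p = 2.01e-06) and Npas2 by 1.26 (SE 0.14, adjusted p = 8.53e-06). Clock (0.23, SE 0.10, adjusted p = 0.112) and Cry1 (-0.12, SE 0.13, adjusted p = 0.545) did not pass the threshold.

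The sexes were also compared on each injection alone. The earlier result on Nr1d2 did not use the 12 mice on ATG in room air. The choice by strain, injection and air did use them, so this comparison is not independent of it. In these mice the log2 difference of Arntl between males and females was 2.18 (SE 0.14, limma adjusted p = 1.71e-05) and that of Nr1d2 was -2.13 (SE 0.14, adjusted p = 1.71e-05). Mean Arntl in C57BF mice was 7.57 FPKM on saline and 1.20 on ATG, a difference along a label used in the choice. In the 12 mice on saline, Arntl differed by 0.79 (SE 0.24, adjusted p = 0.114) and Npas2 by 0.80 (SE 0.19, adjusted p = 0.0776), neither past the threshold, while the 6 genes higher in females remained past it. In the room air comparison of both injections together, leaving out mice 1, 3 and 4 kept the call of all 8 genes. Clock then passed as well (0.39, limma adjusted p = 0.0117).

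In hyperoxia the sexes lay closer. Here 3 of the 10 genes differed, where 0.681% of 15860 genes did (108 genes, but 26 without mouse 7, 1407 without mouse 19 and 648 with all 48 mice fitted), and no gene, of these 10 or of all genes tested, was without overlap between the sexes (0%). Arntl had FPKM of 5.56 to 12.1 (median 7.21) in males and 3.11 to 9.43 (median 4.52) in females, a log2 difference of 0.53 (SE 0.08, limma adjusted p = 0.00686). Nr1d2 was lower in males by 0.61 on the log2 scale (SE 0.08, adjusted p = 0.00525) and Per2 by 0.59 (SE 0.08, adjusted p = 0.00525). The log2 difference of Nr1d1 was -0.37 (SE 0.09, adjusted p = 0.0647) and that of Npas2 was 0.54 (SE 0.21, adjusted p = 0.175). Per1 (-0.34, SE 0.11, adjusted p = 0.126) and Per3 (-0.35, SE 0.15, adjusted p = 0.211) did not pass the threshold. Neither did Cry2 (-0.11, SE 0.11, adjusted p = 0.632), Clock (-0.04, SE 0.08, adjusted p = 0.821) or Cry1 (-0.04, SE 0.07, adjusted p = 0.811).

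The change of the sex difference from room air to hyperoxia is given as a description, because air was part of the selection. On the log2 scale it was 1.50 for Per1 (SE 0.24), 1.29 for Nr1d2 (SE 0.13), 1.26 for Per3 (SE 0.20), 1.24 for Nr1d1 (SE 0.20), 1.23 for Per2 (SE 0.17) and 0.86 for Cry2 (SE 0.15), as hyperoxia minus room air of male minus female. It was -0.95 for Arntl (SE 0.17), -0.73 for Npas2 (SE 0.26), -0.27 for Clock (SE 0.13) and 0.09 for Cry1 (SE 0.15). The sex difference of each of the 10 genes was nearer to 0 in hyperoxia than in room air.

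**Figure D3:**
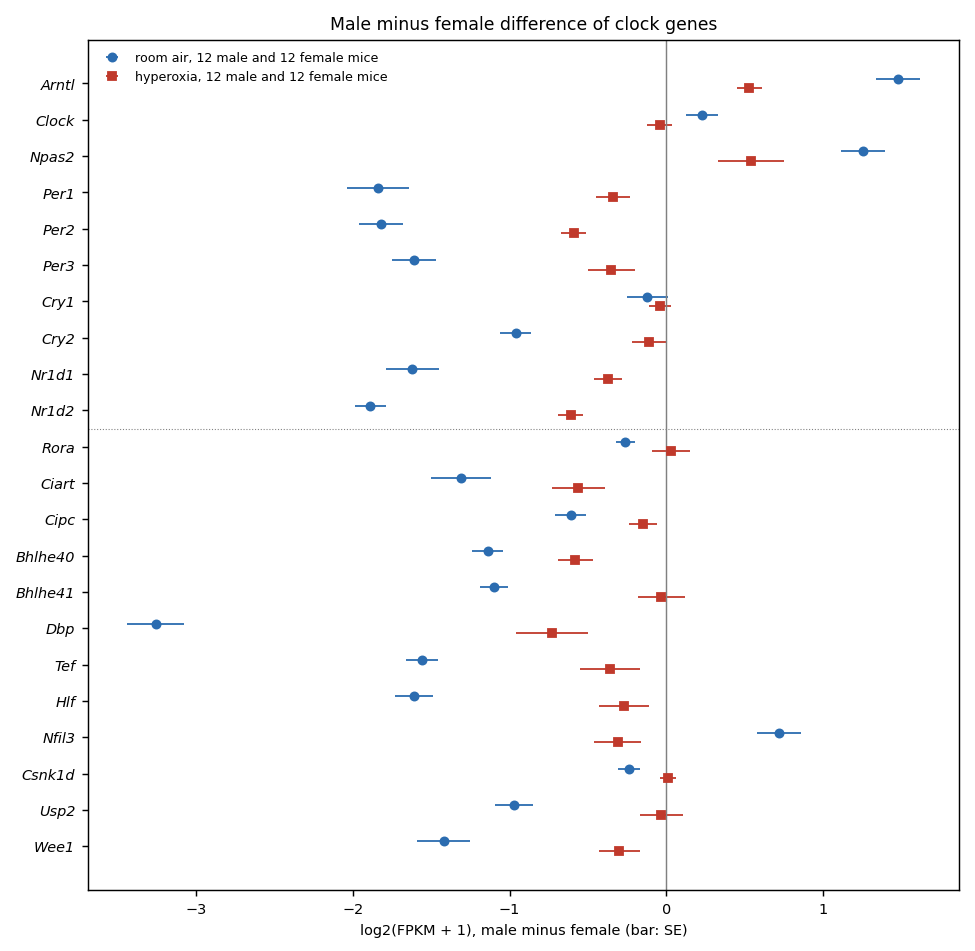
Male minus female difference of log2(FPKM + 1) (horizontal axis, points with SE bars) in room air (blue) and in hyperoxia (red) for the 10 core clock genes, above the dotted line, and for the 12 further clock genes that differed between sexes in room air, below it. The red points lie nearer to 0 than the blue ones, with Dbp moving from -3.26 to -0.73.

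Further clock genes, outside the 10, were taken from a list of 27 that was also drawn up with earlier results known, and 24 passed the filter. In room air 12 of the 24 differed between sexes, 1 higher and 11 lower in males, where 13.3% of all genes differed. The output gene Dbp had the largest log2 difference, -3.26 (SE 0.18, limma adjusted p = 7.17e-10), with FPKM of 2.43 to 14.6 (median 7.50) in males and 13.8 to 153 (median 110) in females. Its relatives Hlf (-1.61, SE 0.12, adjusted p = 8.9e-08) and Tef (-1.56, SE 0.10, adjusted p = 5.08e-09) were lower in males too, as were Wee1 (-1.42), a cell cycle kinase gene under clock control, and the repressor genes Ciart (-1.31), Bhlhe40 (-1.14), Bhlhe41 (-1.10) and Cipc (-0.61). The deubiquitinase gene Usp2 (-0.97), Rora (-0.26) and the kinase gene Csnk1d (-0.24) made up the rest. Nfil3, which represses at D-boxes, was the one higher in males (0.72, SE 0.14, adjusted p = 0.00334).

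In hyperoxia 1 of the 24 differed between sexes, where 0.681% of genes did, Bhlhe40 (-0.58, SE 0.11, limma adjusted p = 0.0213). In a single fit of all 48 mice the sex difference moved with air in 9 of the 24, where 4.16% of 16994 genes did, led by Dbp with a change of 2.53 (SE 0.30, adjusted p = 2.81e-06) and Hlf with 1.33 (SE 0.20, adjusted p = 0.000244). Tef (1.20), Wee1 (1.12), Bhlhe41 (1.07), Usp2 (0.94), Bhlhe40 (0.55) and Cipc (0.45) moved the same way, and Nfil3 moved by -1.03. The call of Cipc was lost in 39 of 55 alternative settings. Of all genes 491 moved up and 216 down, or 258 and 389 after median ratio scaling. Their number, 707, fell to 339 without mice 1, 3 and 4, ran from 442 (without mouse 21) to 2016 (without mouse 19) when single mice were left out, and was 450 without mouse 33, 455 without mouse 48, 1121 without mouse 31 and 1878 without mouse 2.

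Hyperoxia against room air passed the threshold in most genes of the lung, 60.1% of 16321 on saline and 61.8% of 16206 on ATG. Of the 24 further clock genes, 13 rose and 5 fell in hyperoxia on saline, and 14 rose and 7 fell on ATG. Both comparisons rest on separate mice. The share of clock genes called was 18 and 21 of 24, against those backgrounds. After quantile normalization the counts were 10 and 6 on saline and 9 and 8 on ATG.

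Nfil3 rose most, from FPKM of 1.98 to 12.4 (median 6.16) to 12.2 to 58.5 (median 26.1) on saline, a log2 difference of 2.01 (SE 0.18, limma adjusted p = 9.25e-09), and by 2.31 on ATG (SE 0.10, adjusted p = 1.64e-13). Bhlhe40, a repressor that hypoxia and glucocorticoids are known to induce, rose by 1.84 on saline (SE 0.12, adjusted p = 1.08e-10) and by 1.63 on ATG (SE 0.08, adjusted p = 1.56e-12). Wee1 rose by 1.44 and 0.90 on the log2 scale, Ciart by 0.67 and 0.79, Bhlhe41 by 0.71 and 0.34 and Cipc by 0.60 and 0.51. Mean Bhlhe41 fell in C3HF mice, from 7.34 to 6.27 FPKM on saline and from 7.96 to 5.92 on ATG. It also fell in C57BF mice on ATG, from 7.56 to 5.91 FPKM, and rose in the other groups. Mean Ciart fell only in C3HF mice on saline, from 6.19 to 5.31 FPKM. Gsk3b, Fbxw11, Nampt and Usp7 rose by 0.47 to 0.54 on saline and by 0.30 to 0.36 on ATG.

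Among the D-box activators, Hlf fell by 0.89 on saline (SE 0.14, limma adjusted p = 2.26e-05) and by 1.38 on ATG (SE 0.14, adjusted p = 4.27e-08). Dbp fell by 0.56 on saline (SE 0.20, adjusted p = 0.0197), a call lost without mice 1, 3 and 4 (adjusted p = 0.14), and by 0.93 on ATG (SE 0.21, adjusted p = 0.000608). Mean Dbp fell in females of both strains on both injections and in C3HM mice on ATG. In C57BM mice it rose, from 4.49 to 8.38 FPKM on saline and from 5.25 to 16.4 on ATG. In C3HM mice on saline it was 11.4 FPKM in room air and 12.0 in hyperoxia. Tef differed by -0.20 on saline (adjusted p = 0.309) and fell by 0.77 on ATG (adjusted p = 9.1e-05). On ATG mean Tef rose in C57BM mice, from 19.9 to 31.4 FPKM, and fell in the other groups. Timeless and Btrc fell on both injections, by 0.46 and by 0.44 to 0.48. Mean Timeless rose in C3HM mice, from 7.49 to 8.26 FPKM on saline and from 7.48 to 8.33 on ATG, and fell in the other groups.

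**Figure D4:**
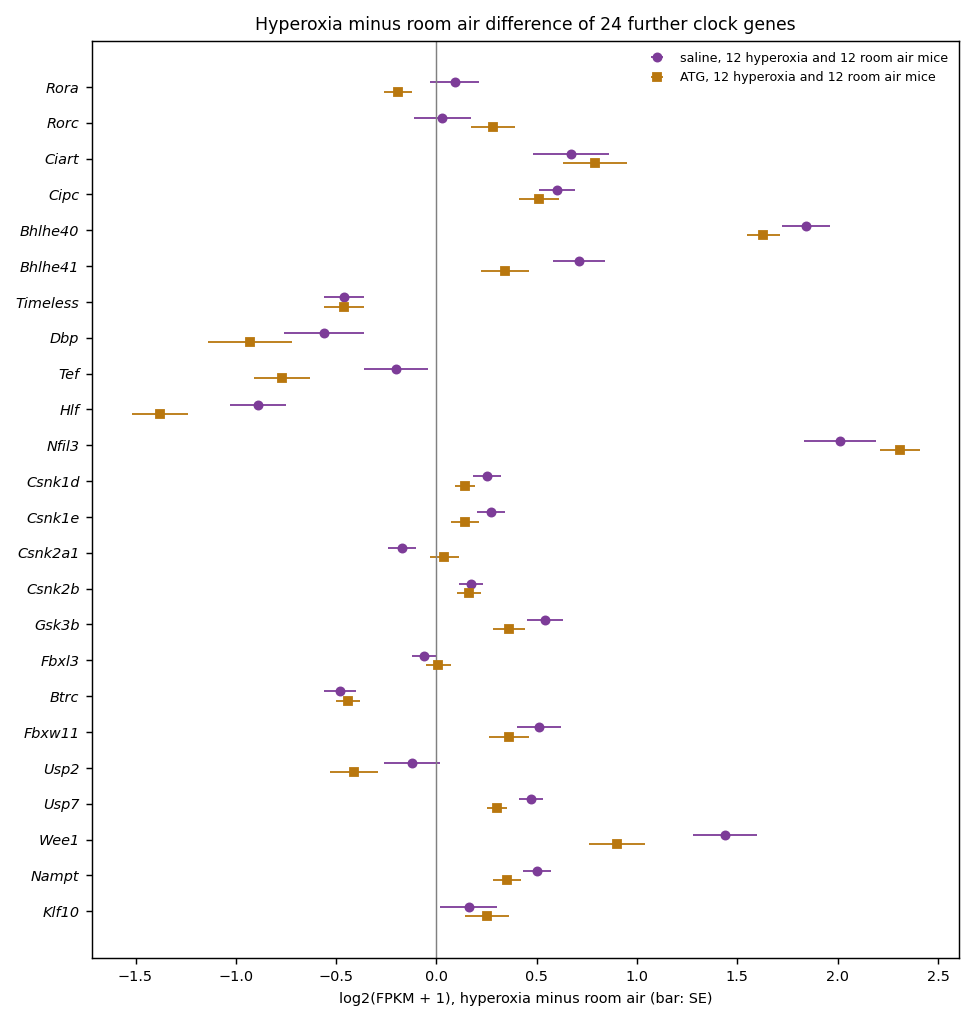
Hyperoxia minus room air difference of log2(FPKM + 1) (horizontal axis, points with SE bars) for 24 further clock genes in saline mice (purple circles) and in ATG mice (orange squares), 12 against 12 mice each. Nfil3, Bhlhe40 and Wee1 lie to the right and Hlf, Dbp and Timeless to the left of 0 on both injections.

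Glucocorticoids act on Per1 and other clock genes, so 7 genes that they are known to induce were read alongside. Tsc22d3 is listed at 0, as are all genes of chromosome X. Of the other 6 genes, averaged over strain and sex, all rose in hyperoxia on saline, and on ATG 5 rose and Klf9 fell, where 60.1% and 61.8% of all genes were called. In C3HF mice on saline mean Klf9 fell from 41.6 to 33.0 FPKM and Dusp1 from 313.7 to 255.5. On ATG mean Klf9 rose in C57BM mice, from 29.5 to 39.4 FPKM, and fell in the other groups. Fkbp5 rose most, by 3.29 on saline (SE 0.17, limma adjusted p = 3.35e-12) and by 2.09 on ATG (SE 0.18, adjusted p = 2.46e-09), and Zbtb16, Cebpd and Sgk1 rose by 1.94, 1.77 and 1.24 on saline. In room air 5 of the 6 were lower in males, where 13.3% of genes differed, among them Zbtb16 (-1.72) and Klf9 (-0.89), and in hyperoxia 1 of the 6 was, where 0.681% did, Fkbp5 (-0.86, SE 0.18, adjusted p = 0.0345). The sex difference moved with air for 2 of the 6, where 4.16% of genes did, Zbtb16 (1.23, adjusted p = 0.048, a call lost in 41 of 55 alternative settings) and Klf9 (0.68). With ATG none of the 6 changed in room air, and Klf9 fell in hyperoxia by 0.47 on the log2 scale (adjusted p = 0.0159). Between strains 1 of the 6 differed in room air and 2 in hyperoxia, where 29.7% and 43.1% of all genes did. The strain difference moved with air for 3 of the 6, where 27.4% of genes did, Fkbp5 (-1.13), Klf9 (-0.83) and Sgk1 (-0.43).

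Injection was compared within each air. In room air, ATG against saline was called for 0.0185% of 16228 genes (3 genes, and 1077 at an unadjusted p under 0.05, with 32 called without mouse 2, 9 without mouse 40, 7 without mouse 39 and 5 without mouse 16), among them none of the 24 further clock genes. For the 10 clock genes the log2 differences lay between -0.45 (Arntl) and 0.68 (Per1). In C57BF mice alone 0.123% of genes were called, 20 genes (12 without mouse 41 and 36 without mouse 40), and 4 of the 24 further clock genes were among them. Dbp rose from 14.6, 13.8 and 24.3 FPKM on saline to 140, 153 and 128 on ATG, a log2 difference of 2.97 (SE 0.36, limma adjusted p = 0.000305). Tef rose by 1.62 (SE 0.20, adjusted p = 0.000305), Bhlhe41 by 1.25 (SE 0.18, adjusted p = 0.00175) and Hlf by 1.34 (SE 0.25, adjusted p = 0.0256). This comparison of 3 against 3 mice was added after the values had been seen, and the call of Hlf was lost without mouse 37, 38, 41 or 42 and in 2 other settings. In the other strain and sex groups in room air none of the 24 passed, where 0.0123% of genes were called in C3HM mice, 0.00616% in C57BM and 0% in C3HF (495 genes at an unadjusted p under 0.05). There the log2 difference of Dbp was -0.02 in C3HM mice, -0.01 in C57BM and 0.28 in C3HF (SE 0.36 each).

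In the same C57BF mice, 8 of the 10 clock genes did not overlap between the injections, 5 higher and 3 lower on ATG, where 11.4% of 14690 genes had no overlap. Injection was part of the selection, and nothing is read from that count. The log2 differences were -1.95 for Arntl (SE 0.29), -1.85 for Npas2 (SE 0.28), 1.56 for Nr1d2 (SE 0.20), 1.54 for Per2 (SE 0.29) and 1.51 for Per3 (SE 0.27). In C3HF mice in room air Per2 was alike on both injections, as given above. Whether the response to ATG differed between strains and sexes was not tested. In hyperoxia 5.47% of 15860 genes differed with ATG (617 higher and 251 lower, or 262 and 369 after median ratio scaling). The number called, 868, fell to 443 without mouse 8 or 24, 450 without mouse 36, 515 without mouse 23, 519 without mouse 10, 548 without mouse 45 and 554 without mouse 47. The calls included Usp7 alone of the 24 further clock genes (-0.17, SE 0.05, limma adjusted p = 0.0493), a call lost in 25 of 31 alternative settings. The log2 differences of the 10 genes lay between -0.54 (Per1) and 0.23 (Per3).

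Strain was compared as C3H minus C57B. In room air the log2 differences of the 10 genes were -1.16 for Arntl (SE 0.14), -0.98 for Npas2 (SE 0.14), 0.92 for Nr1d1 (SE 0.17) and 0.48 for Nr1d2 (SE 0.10), with the others between -0.23 and 0.40. With a pseudocount of 0.1 the log2 difference of Npas2 was -1.67. In hyperoxia the log2 difference was -0.92 for Per1 (SE 0.11), -0.65 for Cry1 (SE 0.07), -0.58 for Per2 (SE 0.08) and -0.56 for Arntl (SE 0.08), so C57B mice had the higher levels.

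Of the 24 further clock genes, 8 differed between strains in room air, 5 higher and 3 lower in C3H, where 29.7% of 16228 genes differed (1709 higher and 3114 lower, or 2420 and 2489 after median ratio scaling). Dbp was higher in C3H by 1.14 (SE 0.18, limma adjusted p = 6.26e-05) and Nfil3 lower by 0.80 on the log2 scale (SE 0.14, adjusted p = 0.000237). In hyperoxia 14 of the 24 differed, 3 higher and 11 lower in C3H, where 43.1% of 15860 genes did. Timeless was higher in C3H by 0.96 (SE 0.10, adjusted p = 3.55e-07) and Wee1 lower, with a log2 difference of -0.80 (SE 0.13, adjusted p = 6.26e-05). The strain difference moved with air in 8 of the 24, where 27.4% of 16994 genes did, and among them were Timeless (0.80), Wee1 (-0.76) and Tef (-0.75). Median ratio scaling shifted the median over all genes in that comparison from 0.10 to 0.00 and the split of all called genes from 3272 higher and 1380 lower to 2249 and 2495, and 1 higher and 12 lower of the 24 then passed.

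The genes whose pattern was most like that of Arntl and Nr1d1 over the 48 mice were read from 14122 genes, outside the 10. Tmem171 (Pearson r of log2 values 0.85), Dapk1 (0.84), Leo1 (0.83), Rasl11a (0.83) and Dtx4 (0.80) were most like Arntl. Dbp (-0.85), Sphk2 (-0.76), Hlf (-0.75), Ankrd12 (-0.72) and Gm4477 (-0.70) were most opposed to it. Nr1d1 was most like Dbp (0.84), Sphk2 (0.74), Klf4 (0.73), Tef (0.71) and Zbtb7a (0.68), and most opposed to Rasl11a (-0.73), Nsmce1 (-0.72), Neurl3 (-0.70), Spon2 (-0.64) and 5430416O09Rik (-0.64). These values follow the differences between groups and carry no p. Dbp in room air was 97.4, 94.8 and 112 FPKM in C3HF mice on saline, where Arntl was below 1.

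**Figure D5:**
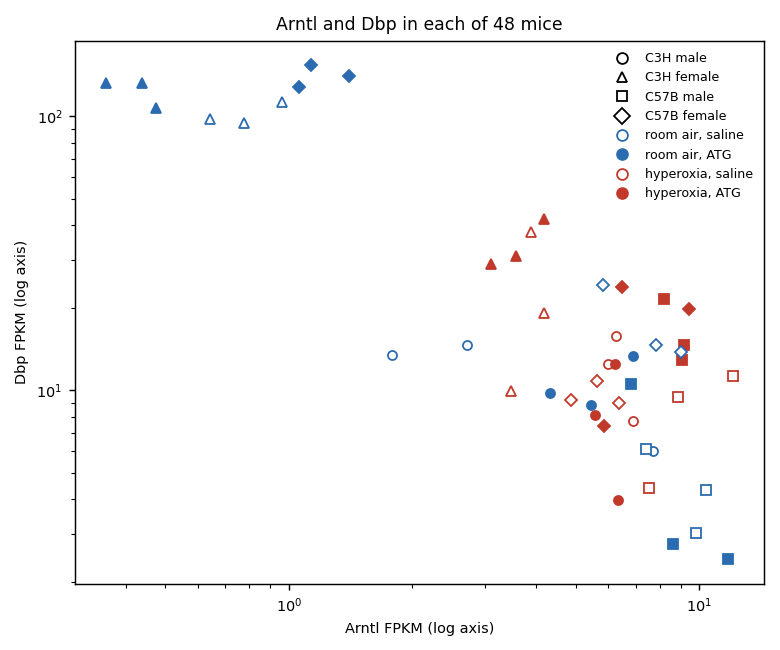
Dbp FPKM against Arntl FPKM (both log axes) in each of the 48 mice, with strain and sex as marker shape, room air in blue, hyperoxia in red, saline open and ATG filled. The 6 C3HF mice and the 3 C57BF mice on ATG in room air form the upper left, with Arntl at 1.40 FPKM or lower and Dbp at 94.8 FPKM or higher.

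Within groups, after each group's mean was removed, 4 of the 45 pairs of clock genes correlated over the 48 mice by a permutation test with Benjamini-Hochberg adjustment over the 45 pairs. Arntl and Clock had a Pearson r of 0.64 (adjusted p = 0.0117) and a Spearman rho of 0.57 (adjusted p = 0.0259). Cry2 and Nr1d2 had an r of 0.56 (adjusted p = 0.0117) and a rho of 0.64 (adjusted p = 0.00495), and Per3 and Nr1d2 an r of 0.52 (adjusted p = 0.016) and a rho of 0.51 (adjusted p = 0.0289). Arntl and Npas2 had an r of 0.45 (adjusted p = 0.0394) and a rho of 0.40 (adjusted p = 0.106). Raw permutation p values of r were 0.00052, 0.00031, 0.00107 and 0.0035 in that order, and those of rho 0.00115, 0.00011, 0.00193 and 0.0188. Without the 2 mice farthest from the median of the gene named first, r was 0.55, 0.56, 0.44 and 0.43. Within the 24 room air mice the r values were 0.62, 0.51, 0.44 and 0.64 and 1 pair passed, and within the 24 hyperoxia mice 0.75, 0.63, 0.63 and 0.38 and none passed by r, while Arntl and Clock passed by rho (0.77, adjusted p = 0.0405). After median ratio scaling the r values in that order were 0.51, 0.45, 0.49 and 0.35 (adjusted p = 0.0614, 0.0988, 0.0614 and 0.0988 by the permutation test), and no pair passed.

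Cell type markers were read in the same comparisons. Of 53 marker genes in 11 lists, 44 differed with hyperoxia on saline and 39 on ATG, where 60.1% and 61.8% of all genes differed. On saline, 5 of 5 neutrophil and 4 of 5 macrophage markers rose, and 5 of 6 alveolar type 2, 3 of 4 club cell, 4 of 4 B cell, 4 of 4 T cell and 5 of 5 cardiac muscle markers fell.

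In room air 7 of the 53 differed between sexes, a share near the 13.3% of all genes, and these were all 5 neutrophil markers and 2 of 6 endothelial markers, higher in males. The neutrophil markers, led by S100a9 and none at 0, summed to 59.9 to 3620 FPKM in males (median 440.2) and 75.6 to 351.3 in females (median 228.8). In hyperoxia 1 of the 53 differed, where 0.681% of genes did, the macrophage marker Mrc1, lower in males (-0.55, SE 0.10, limma adjusted p = 0.0223). The sex difference moved with air in 9 of the 53, where 4.16% of genes did. These were all 5 neutrophil markers, among them S100a8 (-3.05, SE 0.62, adjusted p = 0.00496), and 4 of 5 macrophage markers, Marco (-0.93), Siglecf (-0.70), Chil3 (-1.15) and Mrc1 (-0.82, SE 0.14, adjusted p = 0.000874).

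Between strains, 34 of the 53 differed in room air and 23 in hyperoxia, where 29.7% and 43.1% of genes did, and the strain difference moved with air in 28, where 27.4% did. With ATG, 7 of the 53 differed in hyperoxia, where 5.47% of genes did, and 1 in room air, a macrophage marker. In C57BF mice in room air 1 of the 53 was called with ATG, the macrophage marker Marco (1.79, SE 0.26, limma adjusted p = 0.00237), where 0.123% of genes were. The part of cell composition in the clock gene values was not tested.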

How the data were processed

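RNA from 48 snap-frozen mouse lungs was sequenced after poly(A) selection. The labels name HiSeq2000 and the methods HiSeq 4000. Alignment by the authors was to mm10 with GSNAP, and the submitters' notes also name SAMtools. They deposited FPKM from Cufflinks, a value scaled to transcript length and mapped fragments. No column belonged to another series. Akap5, with a failed estimate in 7 mice, was left out. Here log2(FPKM + 1) was fitted with limma 3.58.1 (R 4.3.3, eBayes with trend) to the mice of each comparison. Each group of strain, sex, injection and air had its own mean, with no other covariate. Main comparisons were averaged over the other labels. Genes with FPKM of at least 1 in at least 3 mice were fitted. P-values were Benjamini-Hochberg adjusted over all genes tested, with a threshold of 0.05. The fit was tested on simulated data. Replicates were separate mice, and mouse numbers paired no samples. Fold changes on this scale understate those of low genes.

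The clock genes and the lists of further clock genes, glucocorticoid-induced genes and cell markers were chosen with earlier results of these data known, among them a sex difference of Nr1d2 in saline mice in room air. All 10 clock genes were named in each main comparison where a test was made. Of the further clock genes past the threshold, all were named for sex, for ATG and for strain and air. For hyperoxia and for strain within each air only some of them were named. Of the glucocorticoid-induced genes up to 4 were named. For likeness, the 5 genes with the highest and the 5 with the lowest r were named. Correlations used 100000 permutations within groups. Alternatives were a pseudocount of 0.1, a minimum FPKM of 0.1, no filter, quantile normalization, median ratio scaling, eBayes without trend, a fit of all 48 mice and leaving out each mouse. Settings without mice 1, 3 and 4, the ATG comparison within each strain and sex, and the SD between group means were chosen after the data had been seen. Python 3.11.15 with pandas 2.3.3, numpy 2.4.6, scipy 1.17.1 and matplotlib 3.10.9 was used.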

Additional observations from a re-analysis of the deposited data

Results flagged for a closer look

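Differences between the sexes were set against each other in room air and hyperoxia, in a limma fit of all 48 mice. For the core clock genes, which were selected with air in view, the values are a description and support nothing. On the log2 scale, as hyperoxia minus room air of male minus female, they were -0.95 for Arntl, 1.50 for Per1, 1.23 for Per2, 1.26 for Per3, 0.86 for Cry2, 1.24 for Nr1d1 and 1.29 for Nr1d2. Among further clock genes, where the difference passed the test for 9 of 24 against 4.16% of all genes, they were 2.53 for Dbp, 1.33 for Hlf, 1.20 for Tef, 1.12 for Wee1, 1.07 for Bhlhe41, 0.94 for Usp2, 0.55 for Bhlhe40, 0.45 for Cipc and -1.03 for Nfil3. Among glucocorticoid-induced genes they were 1.23 for Zbtb16 and 0.68 for Klf9. The call of Zbtb16 was lost in 41 of 55 alternative settings.

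Strain differences, C3H minus C57B, also differed between the airs by the same test for 8 of 24 further clock genes, a share near the 27.4% of all genes (4652 genes). After median ratio scaling 13 of the 24 passed, 1 higher and 12 lower, with 4744 of 16994 genes called. The differences were 0.80 for Timeless, -0.76 for Wee1, -0.75 for Tef, -0.69 for Ciart, -0.51 for Csnk1e, -0.50 for Rora, -0.48 for Cipc and -0.34 for Gsk3b. For glucocorticoid-induced genes they were -1.13 for Fkbp5, -0.83 for Klf9 and -0.43 for Sgk1. Groups of 3 mice were not screened for single outlying mice.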

How the results depend on the processing

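The 8 clock genes called between sexes in room air and the 3 in hyperoxia kept their calls without each mouse in turn. Over 3970 alternative values for the 10 genes, 3935 kept direction and side of the threshold or moved by less than 1 SD between replicates, and calls were lost only for Arntl and Npas2 in the 12 saline mice in room air. Numbers of genes called over the whole table moved more. Between sexes in room air they were 2161, but 934 without mice 1, 3 and 4, 104 in the 12 saline mice and 250 in the 12 ATG mice. Between sexes in hyperoxia they were 108, but 70 with a pseudocount of 0.1, 59 with a minimum FPKM of 0.1, 49 without a filter, 184 after quantile normalization, 61 without trend and 648 with all 48 mice fitted. The number moving with sex and air was 707, and 339 without mice 1, 3 and 4. For ATG in room air it was 3, and 5 without a filter. Of 4 correlated pairs, 0 remained after median ratio scaling, 1 in the 24 room air mice and 0 in the 24 hyperoxia mice by r.

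Leaving out each mouse gave 26 (without mouse 7) to 1407 (without mouse 19) genes between sexes in hyperoxia, 1433 (without mouse 42) to 4235 (without mouse 2) in room air, and 442 (without mouse 21) to 2016 (without mouse 19) for sex and air. It gave 3 to 32 (without mouse 2) for ATG in room air, 12 (without mouse 41) to 36 (without mouse 40) in C57BF mice, and 443 (without mouse 8 or 24) to 1096 in hyperoxia. The ranges were 9479 to 10098 for hyperoxia on saline, 9748 to 10024 on ATG, 4207 to 5998 for strain in room air, 6218 to 6969 in hyperoxia and 4184 to 5235 for strain and air. Where 2 mice of a group were left, the spread was shared with the other groups.

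Values that changed sign without a call were those of Cry1 between sexes in room air (0.04 without mice 1, 3 and 4, and 0.09 in the 12 saline mice) and in hyperoxia (0.01 without mouse 24, with a lowest value of -0.07), of Clock in hyperoxia (0.00 without mouse 19, with a lowest value of -0.07), and of Cry1 for sex and air (-0.02 after quantile normalization and -0.08 without mice 1, 3 and 4). After quantile normalization, Csnk2b with hyperoxia was -0.01 on saline and -0.06 on ATG, and Csnk1d -0.03 on ATG, all no longer called. The cause was not tested. Calls of further clock and glucocorticoid-induced genes were lost in 331 of 4456 alternative values. Depth is unknown, so the counting error of low genes such as Npas2 cannot be given. No paired analysis was possible because each mouse number occurs once.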
